A study of Mus musculus with 12 samples.

Results

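A set of 10 genes that mark the vessels of lymphoid organs were followed across all 12 libraries of the study. They comprise 3 genes of endothelium in general (Kdr, Tek and Cdh5), 3 genes of lymphatic vessels (Lyve1, Prox1 and Flt4) and 4 genes of high endothelial venules (Glycam1, Chst4, Fut7 and Madcam1). They were picked by symbol from the rows of both count tables, and all 10 of 10 were found among 23284 genes. PolyA RNA was sequenced from the spleen and the axillary lymph node of mice aged 30 weeks on normal laboratory diet. All mice lacked apolipoprotein E and mouse apolipoprotein A-I (DKO), the latter being the main protein of high density lipoprotein, and one genotype also overexpressed human apoA-I (DKO/hA-I). Each tissue had 3 libraries per genotype, no group had working apolipoprotein E, and the labels do not name the promoter that drives the human transgene.

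Kdr, Tek and Cdh5 encode a receptor for VEGF-A, the angiopoietin receptor and VE-cadherin, and are used by endothelium of blood and lymphatic vessels. Lymphatic endothelium is set apart by the transcription factor Prox1, by Flt4, the receptor for VEGF-C and VEGF-D, and by the hyaluronan receptor Lyve1, which some macrophages also carry. High endothelial venules are the postcapillary vessels through which lymphocytes enter lymph nodes. Their cells make sulfated, fucosylated sugars with the sulfotransferase Chst4 and the fucosyltransferase Fut7, and carry them on proteins such as Glycam1, to which passing lymphocytes bind. Madcam1 is a ligand of the integrin that contains Itgb7, best known from venules of mucosal lymphoid tissue and from cells lining the marginal sinus of the mouse spleen.

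Promoter sequences are shown for the 3 high endothelial genes that differed most between the tissues averaged over genotypes, because Madcam1 went the other way from Glycam1 and Chst4. Of the 10 genes, 8 had a RefSeq promoter entry on GRCm38.p6, with 250 bases before and 50 after the start. The 4 motifs below, chosen with the expression results known, were searched on both strands with overlaps allowed, and capitals mark the letters that match GGGNNNNNCC, a loose form of the NF-kappaB motif.
Glycam1, chr15:103565032-103565331, minus strand: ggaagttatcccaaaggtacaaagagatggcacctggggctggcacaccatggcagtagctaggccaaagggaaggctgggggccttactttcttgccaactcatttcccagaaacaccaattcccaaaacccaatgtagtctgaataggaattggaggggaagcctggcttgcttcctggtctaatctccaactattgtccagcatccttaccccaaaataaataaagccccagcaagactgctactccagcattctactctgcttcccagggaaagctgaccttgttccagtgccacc
Chst4, chr8:110039285-110039584, minus strand: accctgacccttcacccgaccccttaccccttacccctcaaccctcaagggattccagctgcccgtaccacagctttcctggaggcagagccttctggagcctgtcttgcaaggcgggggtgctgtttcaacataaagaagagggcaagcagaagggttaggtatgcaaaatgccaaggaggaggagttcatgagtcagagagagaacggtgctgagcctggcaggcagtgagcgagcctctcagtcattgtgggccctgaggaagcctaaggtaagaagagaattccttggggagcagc
Madcam1, chr10:79664309-79664608, plus strand: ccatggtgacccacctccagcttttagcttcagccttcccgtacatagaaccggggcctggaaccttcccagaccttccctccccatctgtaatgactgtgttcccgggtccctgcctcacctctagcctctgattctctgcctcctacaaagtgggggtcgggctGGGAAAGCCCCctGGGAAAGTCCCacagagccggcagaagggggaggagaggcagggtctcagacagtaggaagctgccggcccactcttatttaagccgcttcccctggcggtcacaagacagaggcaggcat
Madcam1 held GGGNNNNNCC in 2 adjacent clusters, with matches starting at positions -84, -83, -71 and -70 from the start, some of them the same bases read on both strands. GGGNNNNNCC was present in 50.8% of all 32851 promoters, and of the 8 genes with an entry it was found in 5, namely Kdr, Tek, Prox1, Flt4 and Madcam1. Neither the Glycam1 nor the Chst4 window held it. None of these 3 windows held TNAAGTG, a form of the NKX2 motif found in 11.5% of promoters, CCGGAAGT, an ETS motif found in 3.89%, or TATAAA, found in 13.6% of promoters and, among the 8 genes, in Prox1.

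The libraries held 5911835 to 11950825 counts, so that 3 counts corresponded to 0.259 to 0.506 CPM (counts scaled to a common library size, on the TMM-adjusted scale used throughout). Lymph node DKO replicate 2 was the shallowest, differed most from its group (chi-square per degree of freedom 56.5 and 54.3 against its group's other libraries, which differed by 14.4), and had the highest neutrophil sum of the nodes. Summed erythroid markers were 23.5 to 341 CPM in the nodes and 7450 to 36800 CPM in the spleens, and summed reticular stroma markers were higher in every node. The pseudogene Rpl31-ps12 summed to 2094 counts in nodes labelled DKO and 3 in nodes labelled DKO/hA-I, but to 5 and 2162 in the spleens, the opposite way. Every genotype direction below is that of the labels and would turn in a tissue whose labels were exchanged, whereas contrasts of tissues averaged over genotypes would not. Tissue contrasts within DKO or within DKO/hA-I mice would then compare unlike genotypes, and the interaction would change as well. Lymph node DKO animals all shared the middle number 75 of their codes, and the DKO/hA-I animals had 76, 77 and 78, so genotype and whatever that number marks cannot be told apart in the node. Tissues came from animals with different codes, so tissue and animal cannot be told apart either, and the labels do not say that replicates were processed separately.

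The 2 tissues differed most in the lymphatic gene Lyve1 and in the high endothelial genes. Averaged over genotypes, a contrast chosen after seeing the data, 7 of the 10 genes were higher in the node and Madcam1 was higher in the spleen at an adjusted p under 0.05 (edgeR quasi-likelihood test, Benjamini-Hochberg over all genes tested), where 35.4% of all tested genes were called (17.5% toward the node and 17.9% toward the spleen). In DKO mice 6 genes were higher in the node and 1 was lower, against a background of 22.8% called (11.3% higher and 11.5% lower). In DKO/hA-I mice 7 were higher and 1 was lower, against 25.7% (11.8% higher and 14% lower). The median log2 difference of the 10 genes was 0.69 in DKO and 0.82 in DKO/hA-I mice, beside 0.01 over all tested genes in DKO mice and 0.0062 in DKO/hA-I mice.

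**Figure D1:**
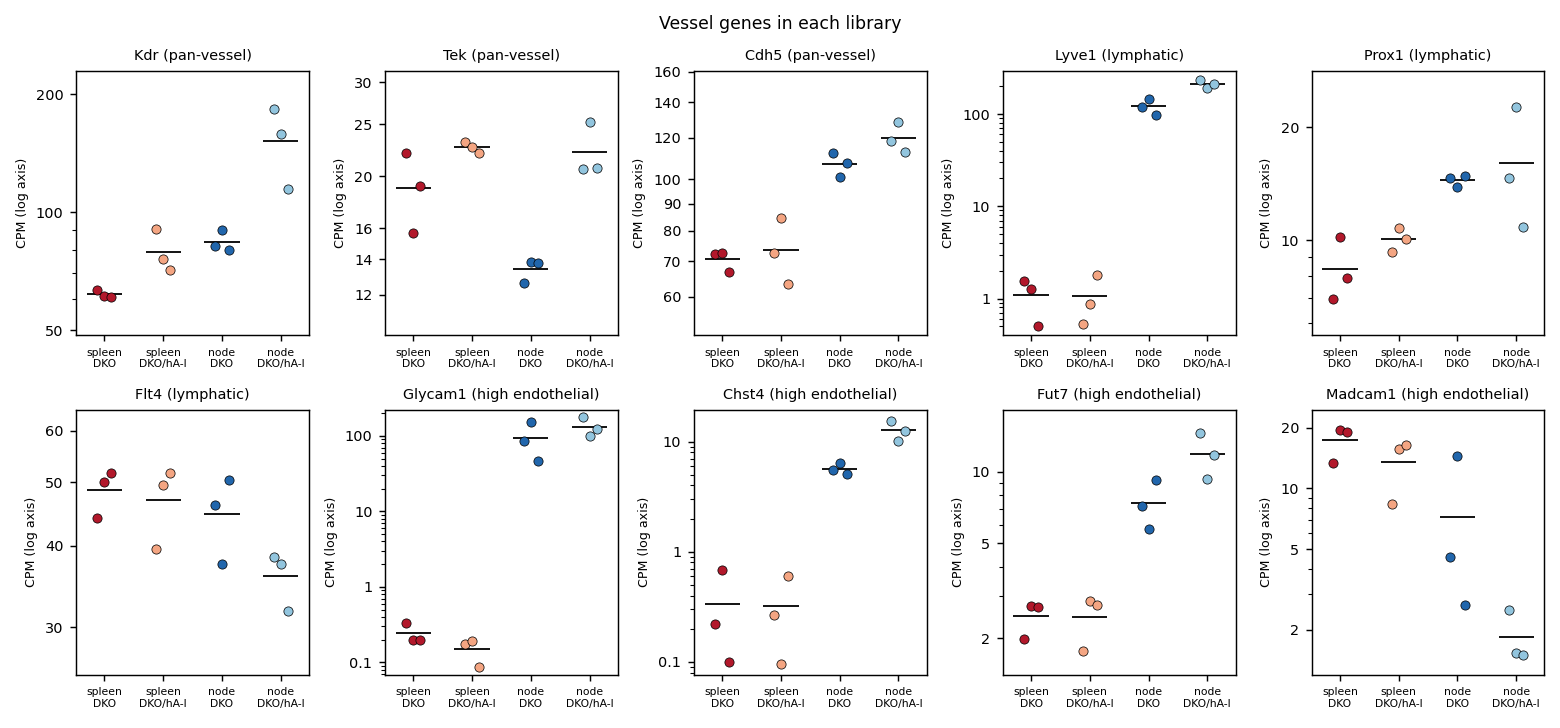
Level of each vessel gene in every library, in CPM on a log axis. Each point is 1 library, 3 per group, and the bar is the group mean. Lyve1, Glycam1, Chst4 and Fut7 were higher in every node library than in every spleen library, and Madcam1 was higher in every spleen library than in 5 of the 6 node libraries.

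Among the high endothelial genes, Glycam1 (chr15:103562759-103565081, minus strand) had the widest range. It stood at 85.5, 151 and 46.0 CPM in the DKO nodes and at 177, 98.2 and 122 CPM in the DKO/hA-I nodes, with only 1 to 3 counts in any spleen. Every node library was thus far above every spleen library. The summed counts gave a node to spleen ratio of 349 in DKO mice (95% interval 169 to 869, counting error only) and of 882 in DKO/hA-I mice (378 to 2720). The fitted log2 differences were 8.54 ± 0.58 (SE, adjusted p = 5.7e-07) and 9.67 ± 0.60 (adjusted p = 2.57e-07) by edgeR.

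Chst4 (chr8:110029153-110039740, minus strand), the sulfotransferase, was at 5.58, 6.41 and 5.12 CPM in the DKO nodes and at 15.5, 10.1 and 12.5 CPM in the DKO/hA-I nodes. Its spleen counts were 1 to 7 per library. The node to spleen ratio of the summed counts was 16.3 (8.64 to 34.7) in DKO and 38.5 (21.3 to 77.7) in DKO/hA-I mice. By edgeR the log2 difference was 4.01 ± 0.48 (adjusted p = 5.49e-05) and 5.22 ± 0.45 (adjusted p = 3.6e-06).

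Fut7 (chr2:25423267-25426374, plus strand), the fucosyltransferase, was at 7.20, 5.74 and 9.18 CPM in the DKO nodes, at 14.5, 9.31 and 11.7 CPM in the DKO/hA-I nodes and at 1.77 to 2.89 CPM over the 6 spleens. No node library overlapped a spleen library. The node was higher by a log2 difference of 1.58 ± 0.27 in DKO (adjusted p = 0.00095) and 2.26 ± 0.27 in DKO/hA-I mice (adjusted p = 4.35e-05, edgeR). Fut7 is also expressed by leukocytes, and which cells gave its counts was not tested.

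Madcam1 (chr10:79664559-79668537, plus strand) had the opposite order. The spleens held 13.4, 19.6 and 19.1 CPM in DKO and 8.39, 15.7 and 16.5 CPM in DKO/hA-I mice. The DKO nodes held 4.59, 14.5 and 2.65 CPM and the DKO/hA-I nodes 2.51, 1.54 and 1.51 CPM, so that of the nodes only DKO replicate 2 reached into the spleen range. The fall from spleen to node was called in DKO/hA-I mice (log2 -2.85 ± 0.53, adjusted p = 0.00151) but missed the threshold in DKO mice (log2 -1.35 ± 0.47, adjusted p = 0.0585, edgeR). Without lymph node DKO replicate 2 the DKO value was -2.26 with an adjusted p of 0.000307, and with all libraries it passed by DESeq2 (0.0343) and voom (0.0105). It was called in only 4 of 19 alternative settings. It missed with RLE size factors (0.0613), total counts (0.0718), no low-count filter (0.096) and the fit on 1 genotype (0.166). Without lymph node DKO replicate 3 it was -0.91 (edgeR adjusted p = 0.201).

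Of the lymphatic genes, Lyve1 (chr7:110850607-110863239, minus strand) was at 120, 147 and 98.4 CPM in the DKO nodes and at 236, 192 and 212 CPM in the DKO/hA-I nodes, but at 0.50 to 1.81 CPM in the spleens. The log2 difference was 6.78 ± 0.34 in DKO (adjusted p = 8.34e-08) and 7.61 ± 0.34 in DKO/hA-I mice (adjusted p = 2.63e-08, edgeR). Prox1 (chr1:190118035-190170714, minus strand), the regulator of lymphatic identity, differed far less, with 13.8 to 14.8 CPM in the DKO nodes, 10.9 to 22.7 CPM in the DKO/hA-I nodes and 6.96 to 10.8 CPM in the spleens.

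The Prox1 difference was log2 0.79 ± 0.24 in DKO (adjusted p = 0.0313) and 0.68 ± 0.23 in DKO/hA-I mice (adjusted p = 0.0484, edgeR), and both lay near the threshold. The DKO call was lost without lymph node DKO replicate 1 or 3 or spleen DKO replicate 1 or 3 (adjusted p 0.0645 to 0.102). The DKO/hA-I call held without lymph node DKO replicate 2, lymph node DKO/hA-I replicate 3 or spleen DKO replicate 2, and was lost without any of the other 9 libraries (adjusted p 0.0502 to 0.256), and without lymph node DKO/hA-I replicate 2 the log2 difference was 0.36. It was also lost with voom (0.0674), without the filter on low counts (0.0515), with total counts (0.0525) and in the fit on 1 genotype (0.0569). Prox1 overlaps 2 annotated antisense genes and Cdh5 overlaps 1, and whether the counting used strand is not given, so their reads cannot be told apart here.

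Flt4 (chr11:49609263-49652739, plus strand) did not follow the other lymphatic genes. It was at 46.1, 37.5 and 50.4 CPM in the DKO nodes, at 38.4, 37.5 and 31.7 CPM in the DKO/hA-I nodes and at 39.6 to 51.6 CPM in the spleens. Neither difference was called (log2 -0.12 ± 0.15, adjusted p = 0.614, in DKO and -0.39 ± 0.15, adjusted p = 0.0732, in DKO/hA-I mice, edgeR). The second passed without lymph node DKO replicate 2 (adjusted p = 0.0411) or spleen DKO/hA-I replicate 1 (0.0373).

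The genes of endothelium in general differed by less than 1 log2 unit between tissues. Cdh5 (chr8:104101625-104144511, plus strand) was at 101 to 112 CPM in the DKO nodes, 113 to 129 CPM in the DKO/hA-I nodes and 63.4 to 84.3 CPM in the spleens, with no overlap. Its node excess was log2 0.60 ± 0.12 in DKO (adjusted p = 0.00236) and 0.71 ± 0.12 in DKO/hA-I mice (adjusted p = 0.000646, edgeR). Kdr (chr5:75932827-75978458, minus strand) was higher in the DKO/hA-I node by log2 0.94 ± 0.16 (adjusted p = 0.000639), and in DKO mice the value was 0.45 ± 0.16 (adjusted p = 0.057, edgeR). The latter passed with DESeq2 (adjusted p = 0.0341), with RLE size factors (0.0498) and without lymph node DKO/hA-I replicate 3 (0.0145).

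Tek (chr4:94739289-94874976, plus strand) was lower in the DKO node than in the DKO spleen by log2 -0.50 ± 0.15 (adjusted p = 0.0295), and in DKO/hA-I mice the difference was -0.03 ± 0.15 (adjusted p = 0.92, edgeR). The DKO call for Tek was lost without lymph node DKO replicate 1 or 3 or spleen DKO replicate 1 or 3 (adjusted p 0.076 to 0.0984) and in the fit on 1 genotype (0.101). Whether these tissue differences themselves changed with genotype is the interaction given with the genotypes.

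**Figure D2:**
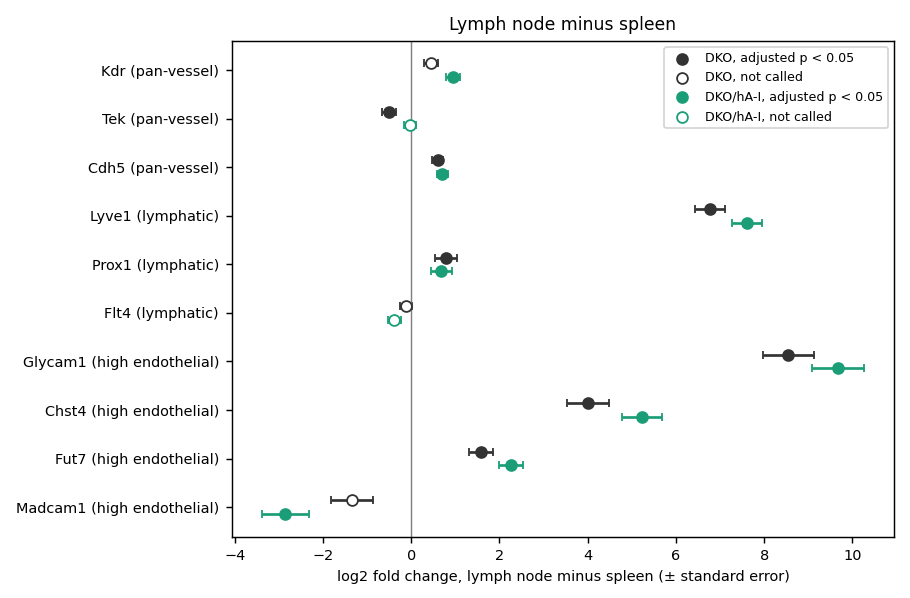
Difference between lymph node and spleen for each vessel gene, as log2 fold change with its standard error, in DKO (dark) and DKO/hA-I (green) mice. Filled points passed an adjusted p of 0.05. The high endothelial genes ranged from 9.67 for Glycam1 to -2.85 for Madcam1 in DKO/hA-I mice.

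Per kilobase of exon, the order of the levels also differed between the tissues. In the DKO node Glycam1 stood at 44.2 ± 24.9 CPM per kilobase (SD, n = 3) and Lyve1 at 41.7 ± 8.28, neighbours that did not differ beyond their spread, followed by Cdh5 at 25.4 ± 1.3 and Kdr at 9.32 ± 0.594. In the DKO spleen Cdh5 was first at 16.8 ± 0.775 CPM per kilobase, Madcam1 second at 12.1 ± 2.4, then Kdr at 6.83 ± 0.165, and Glycam1 last at 0.114 ± 0.0361. In a whole tissue fewer vessel cells and less RNA per vessel cell cannot be told apart.

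To describe the genes relative to endothelium, each was set per 1000 counts of 6 other endothelial genes (Tie1, Robo4, Clec14a, Esam, Emcn and Egfl7), and the tissues were compared by a two-sided exact permutation test over 6 against 6 libraries, for which the smallest p is 0.00216. Glycam1 remained higher in the node by 8.42 log2 units, Lyve1 by 6.92, Chst4 by 4.40, Fut7 by 1.52 and Cdh5 by 0.28, each at that smallest p by the exact test. Madcam1 was lower in the node by -2.58 log2 units (exact p = 0.00866), Tek by -0.64 (exact p = 0.013) and Flt4 by -0.63 (exact p = 0.00216). Kdr (0.31, exact p = 0.238) and Prox1 (0.33, exact p = 0.0758) did not differ beyond the spread. These 10 p-values are unadjusted, and of the 6 reference genes Emcn and Clec14a were themselves called higher in the node, by log2 3.18 and 2.06 in DKO mice, and Tie1 lower, by -0.43 (edgeR adjusted p 2.99e-06, 3.46e-06 and 0.0392). In DKO/hA-I mice 3 reference genes were called higher in the node and 1 lower, and averaged over genotypes 4 and 1. The reference sum averaged 234 and 243 CPM in DKO and DKO/hA-I nodes, and 180 and 188 CPM in the spleens. Without this reference, Tek (log2 -0.27) and Flt4 (-0.25) were not called averaged over genotypes (edgeR adjusted p = 0.0669 and 0.0773).

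**Figure D3:**
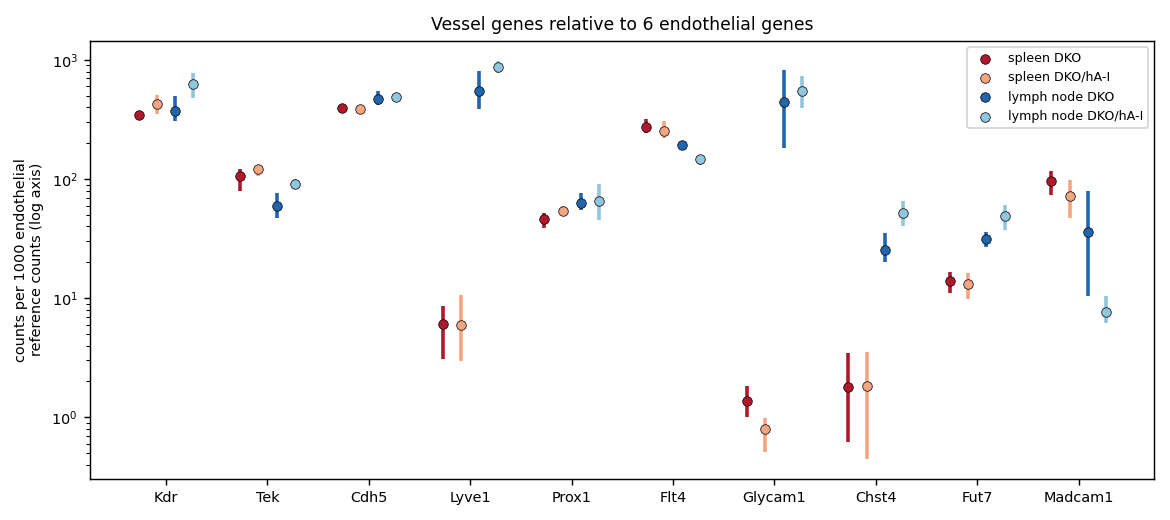
Counts of each vessel gene per 1000 counts of the 6 endothelial reference genes, on a log axis. Points are group means of 3 libraries and bars run from the lowest to the highest library. Glycam1 averaged 444 in DKO nodes and 1.36 in DKO spleens, and Madcam1 averaged 35.7 and 97.2.

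Of 26 other endothelial genes, 7 were higher and 6 lower in the DKO node and 8 higher and 6 lower in the DKO/hA-I node, with a median near 0 (log2 0.06 and 0.15). For this and the following lists, 22.8% of all tested genes were called in DKO and 25.7% in DKO/hA-I mice. Emcn, a sialomucin of capillaries and venules, was higher by log2 3.18 in DKO mice, and Ptprb, the endothelial tyrosine phosphatase, was lower by -1.43 (edgeR adjusted p = 2.99e-06 and 2.72e-05). Of 15 other lymphatic genes, 6 were higher and 2 lower in the DKO node and 7 and 3 in the DKO/hA-I node. Pdpn, which stromal cells also make, was higher by log2 4.50 in DKO mice, and Stab2, the scavenger receptor of sinusoidal endothelium, was lower by -2.07 (edgeR adjusted p = 2.17e-06 and 9.51e-05).

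Of 16 other genes tied to high endothelial venules, 6 were higher and 3 lower in the DKO node and 5 and 4 in the DKO/hA-I node. Enpp2, the enzyme autotaxin that venule cells secrete, was higher by log2 2.40 and 2.33 (edgeR adjusted p = 1.33e-07 and 1.53e-07). Vcam1 was lower by -1.41 and -2.05 (adjusted p = 0.000178 and 9.31e-06). Nkx2-3, a homeobox factor that mouse genetics ties to Madcam1, had 0 counts in every node library and 14.9 to 20.0 CPM in the spleens, and 3 counts would have been 0.265 to 0.506 CPM in a node. Of 13 vessel ligands and lymphotoxin genes, 4 were higher and 2 lower in the DKO node and 3 and 2 in the DKO/hA-I node, among them the peptide ligand Apln (log2 3.89 and 1.54) and the Tek ligand Angpt1 (-2.23 and -1.53), all with an edgeR adjusted p under the threshold.

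Within the lymph node, 4 of the 10 vessel genes were lower in DKO than in DKO/hA-I mice and none was called higher, where 6.87% of 14012 tested genes were called (2.92% lower and 3.95% higher). The called genes were Kdr, Tek, Lyve1 and Chst4. With total counts in place of TMM scaling, the split of calls was 475 up and 544 down in DKO, beside 553 and 409 with TMM. The groups did not overlap for 6 genes lower in DKO and 1 higher, and 30.5% of all tested genes had groups without overlap (14.9% lower and 15.6% higher). The median log2 difference of the 10 genes was -0.57, beside 0.01 over all tested genes.

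Kdr was at 81.9, 90.3 and 80.3 CPM in the DKO nodes and at 184, 158 and 115 CPM in the DKO/hA-I nodes, a difference of log2 -0.84 ± 0.18 (adjusted p = 0.0352, edgeR). Tek was at 12.6, 13.8 and 13.8 CPM against 20.6, 25.2 and 20.8 CPM (log2 -0.72 ± 0.16, adjusted p = 0.0389, edgeR). In both receptors every DKO node lay below every DKO/hA-I node. Cdh5 was at 107 ± 5.48 CPM in DKO and 120 ± 8.05 CPM in DKO/hA-I nodes (SD, n = 3), and its difference was log2 -0.15 ± 0.11 (adjusted p = 0.455, edgeR).

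Lyve1 was at 98.4 to 147 CPM in the DKO and 192 to 236 CPM in the DKO/hA-I nodes (log2 -0.80 ± 0.17, adjusted p = 0.0359, edgeR). The other lymphatic genes were not called, with log2 -0.14 ± 0.27 for Prox1 (adjusted p = 0.782) and 0.33 ± 0.15 for Flt4 (adjusted p = 0.224, edgeR). Chst4 was lowest relative to DKO/hA-I among the 10 genes, at 5.12 to 6.41 against 10.1 to 15.5 CPM (log2 -1.15 ± 0.22, adjusted p = 0.0292, edgeR). Fut7 (log2 -0.66 ± 0.25, adjusted p = 0.154) and Glycam1 (-0.48 ± 0.41, adjusted p = 0.515) were not called, and the Glycam1 groups overlapped.

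The 4 calls held without lymph node DKO replicate 2, where their adjusted p lay between 0.00327 for Lyve1 and 0.019 for Tek. They were lost without lymph node DKO replicate 1 (0.0743 for Chst4 to 0.0886 for Lyve1), DKO replicate 3 (0.108 for Chst4 to 0.124 for Kdr), DKO/hA-I replicate 1 (0.0955 for Tek to 0.116 for Lyve1) or DKO/hA-I replicate 2 (0.0684 for Chst4 to 0.169 for Tek). Without DKO/hA-I replicate 3 only Kdr remained called (0.0164). All 4 genes were lower in DKO nodes under every setting tried.

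Of the 4 high endothelial genes in the set, Madcam1 alone had a higher level in the DKO nodes. Among 15 other tested high endothelial genes, 9 had a higher fitted value in DKO nodes, none with a call. The Madcam1 value was log2 1.92 ± 0.64 with an adjusted p of 0.116 (edgeR). Its groups did not overlap, the lowest DKO node being at 2.65 and the highest DKO/hA-I node at 2.51 CPM. In the authors' deposited table the log2 ratio had a size of 1.95 with a q of 0.0107. Its sign was turned, because the deposited node ratios ran opposite to the edgeR values (Pearson r = -0.993), so its direction is no separate result. The deposited spleen ratios ran the same way as edgeR (r = 0.945) and were not turned. DESeq2 gave 1.96 with an adjusted p of 0.0182, and edgeR fitted on all 12 libraries gave an adjusted p of 0.0392. Without lymph node DKO replicate 2, at 14.5 CPM, the edgeR value fell to 0.97 with an adjusted p of 0.117. The authors' deposited table called none of Kdr, Tek, Lyve1 and Chst4 (q 0.0831, 0.506, 0.139 and 0.13).

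**Figure D4:**
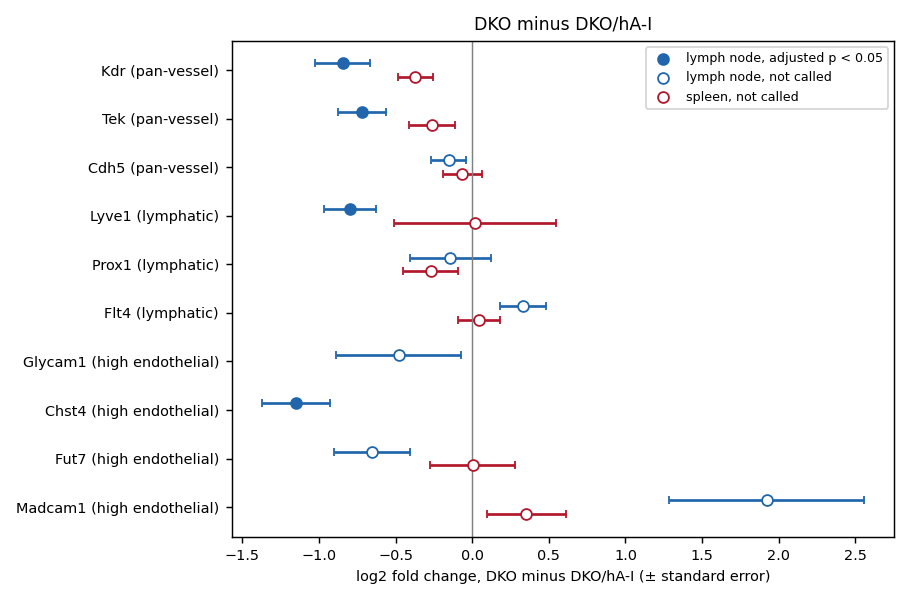
Difference between DKO and DKO/hA-I mice for each vessel gene, as log2 fold change with its standard error, in lymph node (blue) and spleen (red). Filled points passed an adjusted p of 0.05. Glycam1 and Chst4 had too few spleen counts for a test, and Chst4 (-1.15) and Kdr (-0.84) were the lowest of the called node values.

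Marker lists of other cells differed in how many genes edgeR called between the node genotypes. Of all tested genes 6.87% were called and 30.5% had groups without overlap. Called higher in DKO were 4 of 8 reticular stroma, 2 of 8 neutrophil and 1 of 10 pericyte and smooth muscle genes. None of 6 T cell, 5 B cell and 5 tested erythroid genes was called. The sum of 10 adipocyte genes was 16.5 to 46.7 CPM in the DKO and 415 to 1340 CPM in the DKO/hA-I nodes, and all 10 of 10 were called lower in DKO, none being at 0. Adipose tissue holds blood vessels, so this sum stands beside the lower Kdr, Tek and Lyve1, and its part in them was not tested. The T cell sum was 527 to 851 against 983 to 1130 CPM, the neutrophil sum 235 to 1460 against 117 to 285 CPM, and the sinus macrophage sum 1030 to 1220 against 1190 to 2020 CPM. Genes within the sinus macrophage sum went both ways. Of these 8 genes 3 were called lower in DKO, and 2 had a higher fitted value without a call. Marco averaged 23.0 against 285 CPM and Cd209b 41.8 against 536 CPM, whereas Cd5l averaged 577 against 172 CPM and Mrc1 141 against 68.8 CPM. Reticular stroma markers summed to 1230 to 1770 against 834 to 1090 CPM and pericyte and smooth muscle markers to 471 to 647 against 431 to 465 CPM, both without overlap and higher in DKO. B cell markers (1440 to 2290 against 2350 to 2540 CPM) and erythroid markers (23.5 to 65.7 against 110 to 341 CPM) were lower in DKO without overlap, and the part of these sums was not tested. The sum of the 6 endothelial reference genes was 182 to 266 against 239 to 249 CPM, and per that sum the DKO minus DKO/hA-I log2 values were -0.76 for Kdr, -0.65 for Tek, -0.75 for Lyve1 and -1.06 for Chst4. Per 1000 reference counts the groups overlapped for Kdr (308 to 495 against 476 to 770) and Lyve1 (386 to 804 against 771 to 987). They did not overlap for Tek (47.5 to 75.9 against 85.9 to 101) and Chst4 (20.1 to 35.2 against 40.7 to 64.9). The 11 genes of skin and mammary epithelium summed to 1.29 to 2.16 CPM in the nodes, with Krt5, Krt14, Wap and Elf5 at 0 in both groups.

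**Figure D5:**
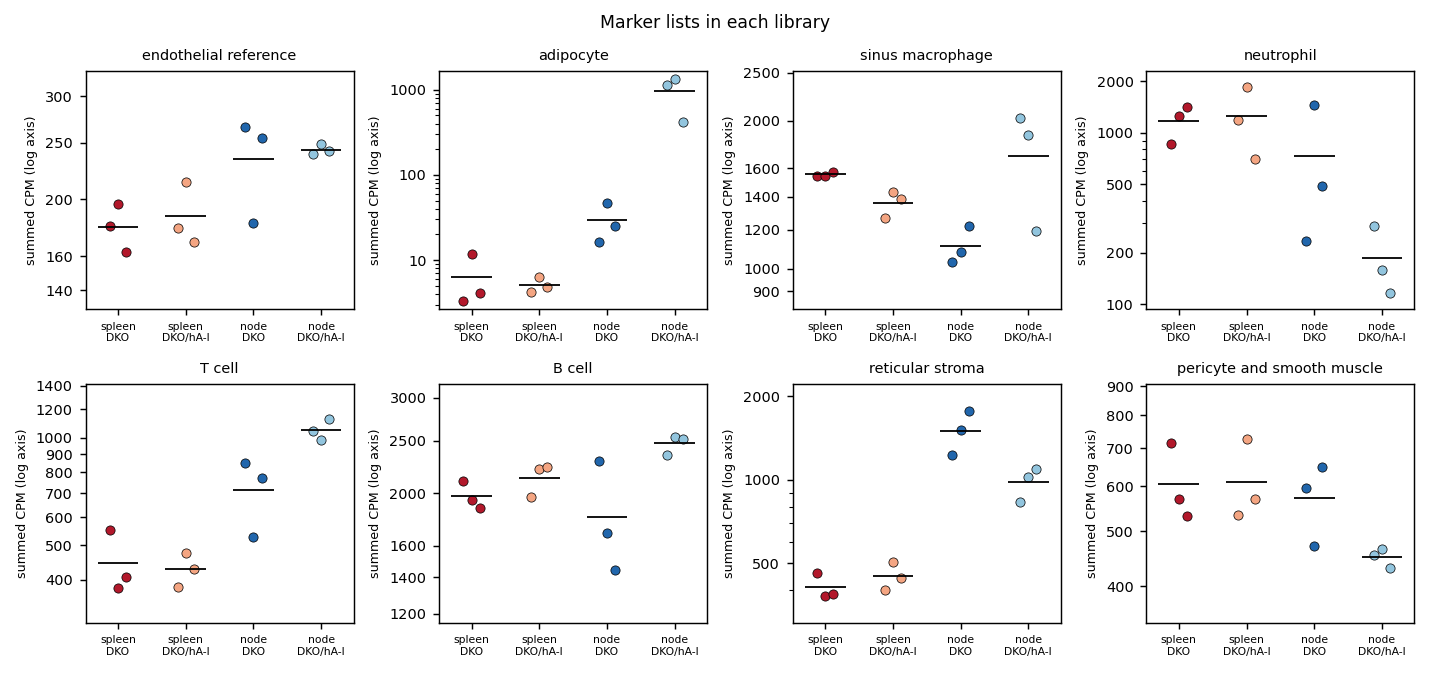
Summed CPM of marker lists in every library, on log axes, with the bar at the group mean of 3 libraries. The adipocyte sum was 415 to 1340 CPM in DKO/hA-I nodes and 16.5 to 46.7 CPM in DKO nodes, while the endothelial reference sums of the 2 node groups overlapped.

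Of the other vessel lists, none of 26 endothelial, 15 tested high endothelial and 13 ligand genes was called between the node genotypes by edgeR. For these and the following lists, 6.87% of all tested genes were called (2.92% lower and 3.95% higher in DKO). The nearest endothelial gene was Emcn (log2 -0.60, adjusted p = 0.0535, edgeR). The count of calls in these lists depends on the fit. The edgeR fit on all 12 libraries called Pecam1 (log2 -0.46), Vcam1 (0.76), Fut4 (0.54), Ltbr (0.59) and Angpt1 (-0.96), where 2253 of 14608 tested genes were called. DESeq2 called Emcn, Pecam1 and Vcam1, where 1967 of 14012 tested genes were called, and total counts called Emcn (-0.68). Of the endothelial, high endothelial and ligand lists, only Emcn, Pecam1, Vcam1, Fut4, Ltbr and Angpt1 were followed in the other fits. Calls among the rest were not counted there. Without lymph node DKO replicate 2, Emcn (-0.63) and Ltbr (0.74) were called. Among 15 lymphatic genes Pdpn was higher in DKO (39.5 against 10.4 CPM, log2 1.95, adjusted p = 0.017) and Ccrl1, a decoy receptor for chemokines that attract CCR7-bearing cells, was lower (5.65 against 14.5 CPM, log2 -1.36, adjusted p = 0.048). Among leukocyte partners of these vessels, the integrin chain Itgb2 was higher in DKO nodes (723 against 368 CPM, log2 0.98, adjusted p = 0.0428). The Ccrl1 and Itgb2 calls were lost with voom (adjusted p 0.0771 and 0.0534) and without any one node library other than DKO replicate 2 (0.0568 to 0.153 for Ccrl1 and 0.0896 to 0.152 for Itgb2). The Pdpn call was lost without DKO/hA-I replicate 1, 2 or 3 (0.0669, 0.0803 and 0.0546).

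In the spleen none of the 8 vessel genes with enough counts was called between genotypes, where 0.00714% of 14009 tested genes were called. The count of genes at an unadjusted p under 0.05 was 617 (4.4%), and DESeq2 called 5 genes. Spleen animals of both genotypes shared the middle code numbers 55 and 57, with 56 in 1 DKO animal. With that number as a block 515 genes were called but none of the 8, the nearest being Kdr (log2 -0.42, adjusted p = 0.0546) and Tek (-0.42, adjusted p = 0.097). The block fits the animal with number 56 by itself, so this contrast rested on the other spleens. Leaving out that library, spleen DKO replicate 1, without a block gave 1839 genes at an unadjusted p under 0.05 by edgeR. Kdr was the one tested member whose groups did not overlap, at 63.4, 61.0 and 60.6 CPM in DKO and 90.9, 76.0 and 71.4 CPM in DKO/hA-I spleens (log2 -0.37 ± 0.12, unadjusted p = 0.00997, adjusted p = 0.929, edgeR), and 10.6% of all tested genes had groups without overlap (5.53% lower in DKO). The other tested members lay between log2 -0.27 for Prox1 and 0.35 for Madcam1. Glycam1 and Chst4 had too few spleen counts to pass the filter on low counts.

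With the labels as given, the genotype difference was not shown to differ between node and spleen for any vessel gene. Were the labels of 1 tissue exchanged, the interaction would add the node and spleen differences instead of subtracting them, which was not tested. None of the 10 was called in the interaction, in which 3.33% of all genes were called. The values, node minus spleen, were log2 1.50 ± 0.71 for Madcam1 (adjusted p = 0.307), -0.49 ± 0.22 for Kdr (adjusted p = 0.27) and -0.47 ± 0.21 for Tek (adjusted p = 0.269, edgeR). For Lyve1 and Chst4 the few spleen counts left wide errors, at -0.84 ± 0.53 and -1.21 ± 0.79. Single libraries moved these values. Madcam1 was at 0.59 without lymph node DKO replicate 2, Chst4 at -0.16 without spleen DKO replicate 2 and -2.02 without spleen DKO/hA-I replicate 3, and Lyve1 at -0.51 without spleen DKO/hA-I replicate 1 and -1.47 without spleen DKO/hA-I replicate 3.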

How the data were processed

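PolyA RNA-seq of spleen and axillary lymph node from DKO and DKO/hA-I mice gave 12 libraries, 3 per group. The authors deposited raw read counts per gene for each tissue and tables of their own genotype comparisons with a log2 ratio (a fold change), p-values and q-values. Trimmomatic, TopHat, Bowtie and Cuffdiff and the builds GRCm38 and mm10 are named in the submitters' processing notes; the counting program, strand setting and the role of each tool are not stated there. The deposited counts were tested with edgeR 4.0.16 (quasi-likelihood, TMM, filterByExpr with a minimum count of 10, R 4.3.3), on 6 libraries for genotype within a tissue and on all 12 for tissue and interaction, with Benjamini-Hochberg adjustment over all genes tested. Standard errors are the log2 fold change divided by the square root of F. DESeq2 1.42.0, limma 3.58.1 (voom), other scalings, no filter, blocks and leaving out each library were alternatives. Intervals of count ratios are exact and, like the floor of 3 counts, cover counting error only. With 3 libraries per group, p-values weigh each difference against the spread between these samples, each of which has its own animal code. That spread may be technical. Named were all 10 members, per other list up to 6 called genes in order of adjusted p, and the 5 genes most like Cdh5, Lyve1 and Glycam1. The members and lists were chosen with earlier results of these data known. Trac was the one listed gene without a row in the tables. The fits were tested on simulated data, and the outcome is not reported here. One gene of the list of leukocyte partners is not reported here.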

Additional observations from a re-analysis of the deposited data

How the results depend on the processing

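Of 2110 recomputed values, 1953 stayed the same, 78 became weaker, 28 stronger, 31 moved and 20 reversed. For log2 differences, the same means that direction and side of the threshold were kept. For counts of called genes it means an equal or similar count, and only such counts could be labelled as moved. Genes called between node genotypes numbered 1967 with DESeq2, 2253 in the fit on all 12 libraries and 115 to 2245 on leaving out 1 library, and vessel genes called 0 to 4. Title numbers did not pair the samples (correlations of deviations -0.141 to 0.119 within comparisons); with a replicate block on them 438 node genes, 0 node vessel genes and 299 interaction genes were called, and the node calls of Ccrl1 and Itgb2 were lost. Spleen calls numbered 5 with DESeq2, 515 with a block on the animal code and 1 to 167 on leaving out 1 library. Interaction calls numbered 973 with DESeq2, 253 with voom and 179 to 1160 on leaving out 1 library, and tissue calls in DKO 2204 when fitted on 1 genotype. Per Cdh5 and Tie1 count, Kdr (0.471) and Prox1 (0.4975) passed the threshold; with the 6-gene reference, leaving out 1 library gave 0.1677 to 0.4314 for Kdr and 0.2278 to 0.4307 for Prox1. Uncalled values near 0 reversed in the spleen: Fut7 to -0.001147 with DESeq2; Lyve1 to -0.04415, Flt4 to -0.01809 and Fut7 to -0.06034 with total counts; Lyve1 to -0.1054 with the animal code block. Leaving out 1 library spanned 0 there for Lyve1 (-0.3006 to 0.6408), Flt4 (-0.05751 to 0.1142), Fut7 (-0.1826 to 0.1269) and Cdh5 (-0.1662 to 0.04997), for Prox1 in the node genotype (-0.3728 to 0.1907) and interaction (-0.1036 to 0.4394), and for Tek between tissues in DKO/hA-I mice (-0.12 to 0.02268). The causes were not tested. Depth limits Glycam1 and Chst4 in the spleen, at 1 to 7 counts per library.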

Other observations

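Over the 12 libraries, the gene whose mean-centred log2(CPM + 0.5) profile lay nearest to that of Lyve1 was Glycam1, with a root mean square difference of 0.508 log2 units, followed by Meox2 at 0.686, Vtn at 0.895, Tnc at 0.901 and Mcpt4 at 1.22. Nearest to Glycam1 after Lyve1 were Meox2 at 0.918, Tnc and Vtn at 1.14 and Mcpt4 at 1.4. Nearest to Cdh5 were Hyal2 at 0.108, Casp8 at 0.125, Tead2 at 0.127, and Podxl and Mcoln2 at 0.129. These are descriptions over libraries that share tissue and genotype, among 14607 genes compared. Glycam1 lay at 0.086 to 0.331 CPM in the spleens, below the 0.5 added before taking logs, so distances from it depend on that constant. Its fitted node to spleen difference averaged over genotypes was log2 9.11, beside 7.20 for Lyve1.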
